A study of Mus musculus with 6 samples.

Results

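The 9 genes described here encode the enzymes that make serine and pass its one-carbon unit through the folate cycle to thymidylate, and they were chosen by name out of 35458 gene identifiers measured in CD8+ T cells of mouse spleen. They are Phgdh, Psat1 and Psph of serine synthesis, Shmt1, Shmt2, Mthfd1, Mthfd1l and Mthfd2 of the folate cycle, and Tyms, thymidylate synthase. All 9 were found by symbol and all 9 passed the filter on low values. RNA-seq compared 3 KO libraries, from mice that carried Cd4cre and floxed Glut10 (Cd4creGlut10fl/fl), with 3 control libraries, from mice that carried Cd4cre alone. Both groups thus carry the Cre transgene, which the Cd4 promoter drives in developing T cells, and the groups differ in the floxed alleles of Glut10, the hexose transporter encoded by Slc2a10. The labels describe the cells as primary and give no age, sex or treatment, and they leave unsaid if replicates are different mice, so the p-values below speak only of library-to-library spread, possibly technical. Lymphoma appears in the series title, but the labels do not state that any mouse had a tumour. The comparison asks how the transcripts of these enzymes differ in CD8+ T cells when the transporter is deleted.

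Serine is made from an intermediate of glycolysis by Phgdh, Psat1 and Psph in turn. Serine hydroxymethyltransferase then moves a carbon of serine onto tetrahydrofolate, in mitochondria (Shmt2) or in the cytosol (Shmt1), and the mitochondrial unit leaves as formate after Mthfd2 and Mthfd1l have acted on it. Mthfd1 takes up formate in the cytosol, where the carbon is used to build purines and, by Tyms, thymidylate for DNA. Activated T cells induce this pathway when they begin to divide, and in mammalian cells the stress-response transcription factor ATF4 activates several of its genes.

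The values are FPKM, which count fragments relative to gene length and to sequencing depth. The length that fits the values is that of all annotated exons of a gene together, from 2486 bases for Phgdh to 6089 for Tyms. A transcript can be shorter than that, so orders and ratios of levels between genes depend in part on this length. The low values imply totals of 3004540 to 14683400 fragments in the KO libraries and 11840600 to 15036300 in the controls, with KO 1 and KO 3 the shallowest. KO 1 and KO 3 also stood apart from the other 4 libraries on principal component 1, which took 64.0% of the variance. Implied reads summed over genes exceeded the implied totals in every library and were fewest in KO 3, at 3314556. All libraries were thinned to 3314555 of these summed reads. KO 1 and KO 3 then had reads on 63.2% and 67.2% of 812 olfactory or vomeronasal receptor genes, which are used by sensory neurons. The share was 10.2% in KO 2 and 15.1% to 26.2% in the controls. The 14 neutrophil markers were all highest in control 2 and control 3, with summed levels of 75.8 to 716 FPKM in the KO libraries and 449, 16963 and 29769.6 FPKM in control 1, 2 and 3. The summed level of the 17 T cell markers was 2805 to 4222 FPKM in the KO libraries and 2758, 1057 and 760.4 FPKM in control 1, 2 and 3. Cd8a itself measured 101, 252 and 90.7 FPKM in KO 1, 2 and 3, against 191, 30.3 and 31.8 FPKM in control 1, 2 and 3 (chosen after its values were seen). In such bulk libraries, fewer cells of a type and less RNA per cell cannot be told apart. Slc2a10 was listed at 0 in each KO library and at 0.0946, 0.0373 and 0.0373 FPKM in control 1, 2 and 3, too low to check the deletion.

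Over all 13956 genes tested, limma on log2(FPKM + 1) called 0 at an adjusted p of 0.05, or 0%, and 0 of the 9 enzymes passed. At an unadjusted p under 0.05, limma held 0 of the 9 enzymes and 1646 of all genes (11.8%). limma-voom on implied reads held 0 of the 9 by either measure, and 1347 of 16247 genes (8.29%) at the unadjusted one. Alternatives that held some of the 9 at an unadjusted p under 0.05 are given at the end. Without KO 2, where limma called 13% of all genes, and without control 1, where it called 2.6%, it again called 0 of the 9. The estimates were higher in KO for 4 enzymes and lower for 5, with a median log2 difference of -0.063, against a median of 0.098 over all genes tested. The KO and control libraries did not overlap for 1 of the 9 enzymes, Tyms, which was higher in KO, where 6.7% of all tested genes did not overlap in that direction, 9.44% in the lower one and 16.1% in either. The data therefore hold no called difference for the pathway, and what follows describes how the levels of its enzymes were spread over the 6 libraries.

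Phgdh (ENSMUSG00000053398), which commits the glycolytic intermediate to serine synthesis, measured 44.1, 88.0 and 38.7 FPKM in KO 1, 2 and 3, against 55.2, 82.5 and 37.7 FPKM in control 1, 2 and 3. The groups covered the same range, with one high library in each. The means were 56.9 ± 27.1 FPKM in KO and 58.5 ± 22.5 FPKM in controls (SD, n = 3 each), a log2 difference of -0.063 (95% interval -1.06 to 0.94; limma adjusted p = 0.952).

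Psat1 (ENSMUSG00000024640), the aminotransferase of the middle step, measured 8.25, 28.5 and 7.12 FPKM in KO 1, 2 and 3, against 16.5, 44.7 and 23.4 FPKM in control 1, 2 and 3. KO 1 and KO 3 lay below every control, whereas KO 2 lay above control 1 and control 3. The means were 14.6 ± 12.05 FPKM in KO and 28.2 ± 14.7 FPKM in controls, a log2 difference of -1.05 (95% interval -2.48 to 0.39; limma adjusted p = 0.432). With KO 1 and KO 3 left out together the estimate was 0.13, and with control 2 and control 3 left out together it was -0.43.

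Psph (ENSMUSG00000029446), the phosphatase that releases free serine, had the opposite pattern. It measured 15.2, 8.83 and 15.7 FPKM in KO 1, 2 and 3, against 6.87, 9.64 and 4.52 FPKM in control 1, 2 and 3. KO 1 and KO 3 lay above every control, and KO 2 lay within the control range. The means were 13.2 ± 3.83 FPKM in KO and 7.01 ± 2.57 FPKM in controls, a log2 difference of 0.84 (95% interval -0.022 to 1.70; limma adjusted p = 0.417), and the estimate with KO 1 and KO 3 left out together was 0.35. KO 1 and KO 3 are the libraries with reads over most sensory receptor genes, and the part of that in the Psph values was not tested. Exons of Cct6a, a chaperonin subunit gene on the opposite strand, cover 10.4% of the Psph exons, and as the strand setting of the counting is not given in the sources used here, reads of the overlap are uncertain. Cct6a measured 28.4, 50.7 and 28.9 FPKM in KO 1, 2 and 3, against 41.6, 49.0 and 32.4 FPKM in control 1, 2 and 3, with its lowest levels in KO 1 and KO 3.

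**Figure D1:**
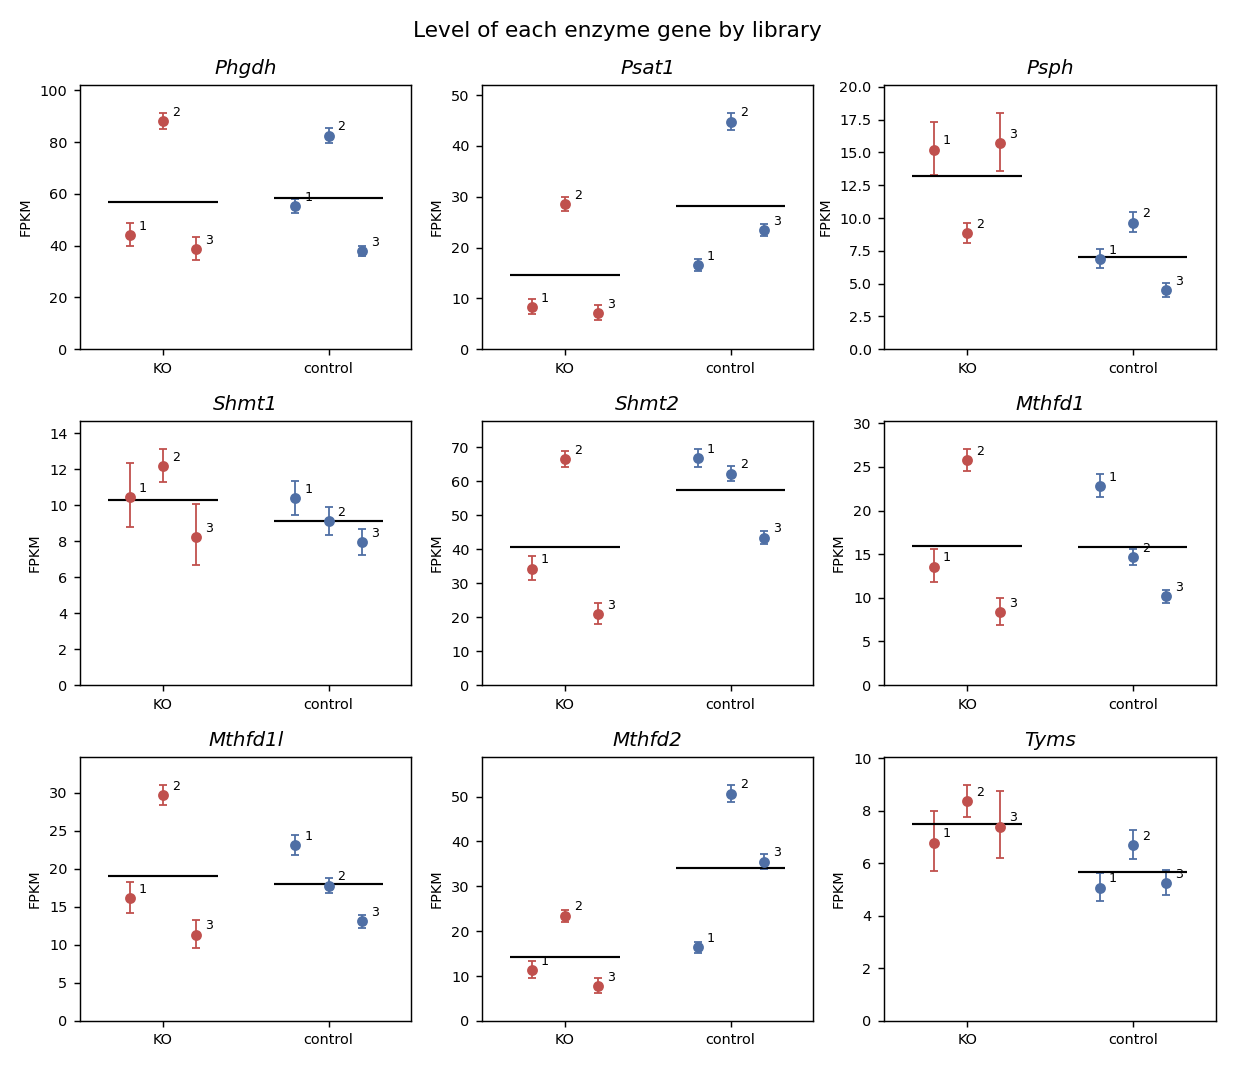
FPKM of each enzyme gene in KO (left, red) and control (right, blue) libraries, numbered by replicate, with 95% exact Poisson intervals of the implied reads, which cover counting error only, and the group mean as a black line. Tyms is the single gene whose groups do not overlap, and KO 2 lies above KO 1 and KO 3 for every gene but Psph.

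Shmt2 (ENSMUSG00000025403), the mitochondrial serine hydroxymethyltransferase, measured 34.2, 66.4 and 20.9 FPKM in KO 1, 2 and 3, against 66.7, 62.2 and 43.3 FPKM in control 1, 2 and 3. KO 2 matched the highest control to within counting error (95% intervals 64.0 to 68.8 FPKM in KO 2 and 64.1 to 69.4 FPKM in control 1), and the other KO libraries lay below all controls. The means were 40.5 ± 23.4 FPKM in KO and 57.4 ± 12.4 FPKM in controls, a log2 difference of -0.62 (95% interval -1.67 to 0.42; limma adjusted p = 0.488). It was -1.05 without KO 2, -0.24 without KO 3 and 0.23 with KO 1 and KO 3 left out together.

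Shmt1 (ENSMUSG00000020534), its cytosolic counterpart, varied least of the 9 genes over the libraries, with a highest level 1.53 times its lowest. It measured 10.5, 12.2 and 8.23 FPKM in KO 1, 2 and 3, against 10.4, 9.12 and 7.95 FPKM in control 1, 2 and 3. The means were 10.3 ± 1.99 FPKM in KO and 9.16 ± 1.23 FPKM in controls, a log2 difference of 0.15 (95% interval -0.46 to 0.75; limma adjusted p = 0.785). Smcr8, on the opposite strand, shares 4.74% of the Shmt1 exons.

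The level of Shmt2 over that of Shmt1 was 3.27, 5.44 and 2.54 in KO 1, 2 and 3, against 6.42, 6.82 and 5.45 in control 1, 2 and 3. All 3 KO libraries were below the controls, but KO 2 (95% exact interval of the reads 5.01 to 5.92) and control 3 (4.92 to 6.04) were the same within counting error, and no test was made of this ratio. The ratio averaged 3.75 ± 1.51 in KO and 6.23 ± 0.705 in controls. Shmt2 thus had the higher FPKM of the pair in every library.

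Mthfd2 (ENSMUSG00000005667), the mitochondrial dehydrogenase and cyclohydrolase that oxidises the unit made by Shmt2, had the widest range of the 9, with a highest level 6.55 times its lowest. It measured 11.3, 23.4 and 7.73 FPKM in KO 1, 2 and 3, against 16.4, 50.6 and 35.5 FPKM in control 1, 2 and 3. Control 2 and control 3 lay above all other libraries, while KO 2 lay above control 1. The means were 14.2 ± 8.22 FPKM in KO and 34.2 ± 17.2 FPKM in controls, a log2 difference of -1.21 (95% interval -2.50 to 0.073; limma adjusted p = 0.417). The estimate was -0.33 with control 2 and control 3 left out together and -0.39 with KO 1 and KO 3 left out together. The KO 3 value rests on 81 implied reads, with a 95% exact Poisson interval of 6.14 to 9.61 FPKM.

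Mthfd1l (ENSMUSG00000040675), the mitochondrial synthetase that yields formate, measured 16.2, 29.7 and 11.3 FPKM in KO 1, 2 and 3, against 23.1, 17.8 and 13.1 FPKM in control 1, 2 and 3. Mthfd1 (ENSMUSG00000021048), the cytosolic enzyme that takes formate back into the folate cycle, measured 13.6, 25.8 and 8.32 FPKM in KO 1, 2 and 3, against 22.8, 14.7 and 10.2 FPKM in control 1, 2 and 3. Both genes put the libraries in the same order, KO 2 highest, then control 1, control 2, KO 1, control 3 and KO 3. Mthfd1l averaged 19.1 ± 9.51 FPKM in KO and 18.0 ± 5.01 FPKM in controls, and Mthfd1 15.9 ± 8.97 FPKM in KO and 15.9 ± 6.42 FPKM in controls. The log2 differences were 0.0082 for Mthfd1l (95% interval -0.94 to 0.96; limma adjusted p = 0.993) and -0.065 for Mthfd1 (95% interval -1.19 to 1.07; limma adjusted p = 0.957). With KO 1 and KO 3 left out together they were 0.73 and 0.74, and with control 2 and control 3 left out together -0.37 and -0.63.

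The level of Mthfd1l over Mthfd1 stayed between 1.01 and 1.36 in all 6 libraries. That of Mthfd2 over Mthfd1 was 0.835, 0.908 and 0.930 in KO 1, 2 and 3, against 0.719, 3.45 and 3.49 in control 1, 2 and 3. Control 1 thus had a ratio below the KO libraries. Its 95% exact interval (0.653 to 0.790) overlapped those of KO 1 (0.667 to 1.04) and KO 3 (0.689 to 1.25), but not that of KO 2 (0.843 to 0.978). In control 2 and control 3 the FPKM of Mthfd2 was over 3 times that of Mthfd1.

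**Figure D2:**
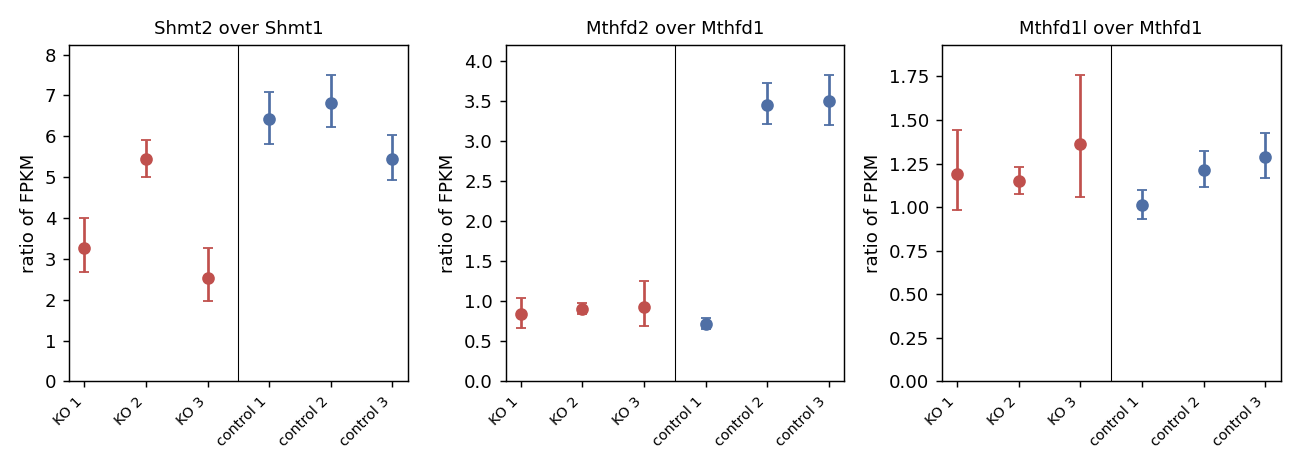
Ratio of the FPKM of gene pairs in each library, KO in red on the left and controls in blue on the right, with 95% exact intervals of the implied reads that cover counting error only. Mthfd2 over Mthfd1 is 3.45 and 3.49 in control 2 and control 3 and under 1 in the other 4 libraries, while Mthfd1l over Mthfd1 stays between 1.01 and 1.36.

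Tyms (ENSMUSG00000025747), which spends the one-carbon unit on thymidylate, had the lowest mean FPKM of the 9 in both groups. It also had the longest exons to divide by (6089 bases), and its implied reads were not the fewest of the 9 in any library. It measured 6.77, 8.36 and 7.38 FPKM in KO 1, 2 and 3, against 5.06, 6.69 and 5.24 FPKM in control 1, 2 and 3. Every KO library lay above every control, but KO 1 and control 2 were the same within counting error (95% exact Poisson intervals 5.70 to 7.98 FPKM in KO 1 and 6.17 to 7.24 FPKM in control 2). The means were 7.50 ± 0.799 FPKM in KO and 5.67 ± 0.893 FPKM in controls, a log2 difference of 0.36 (95% interval -0.24 to 0.95; limma adjusted p = 0.491). The estimate was 0.50 with KO 1 and KO 3 left out together, 0.48 with control 2 and control 3 left out together and 0.061 after quantile normalization, which moved the median of all genes to -0.12. Tyms over the mean of 22 DNA replication genes was 0.299, 0.208 and 0.418 in KO 1, 2 and 3, against 0.188, 0.305 and 0.250 in control 1, 2 and 3, so the groups overlapped on that scale. That mean is of FPKM, so the genes of the list with the highest levels weigh most in it.

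**Figure D3:**
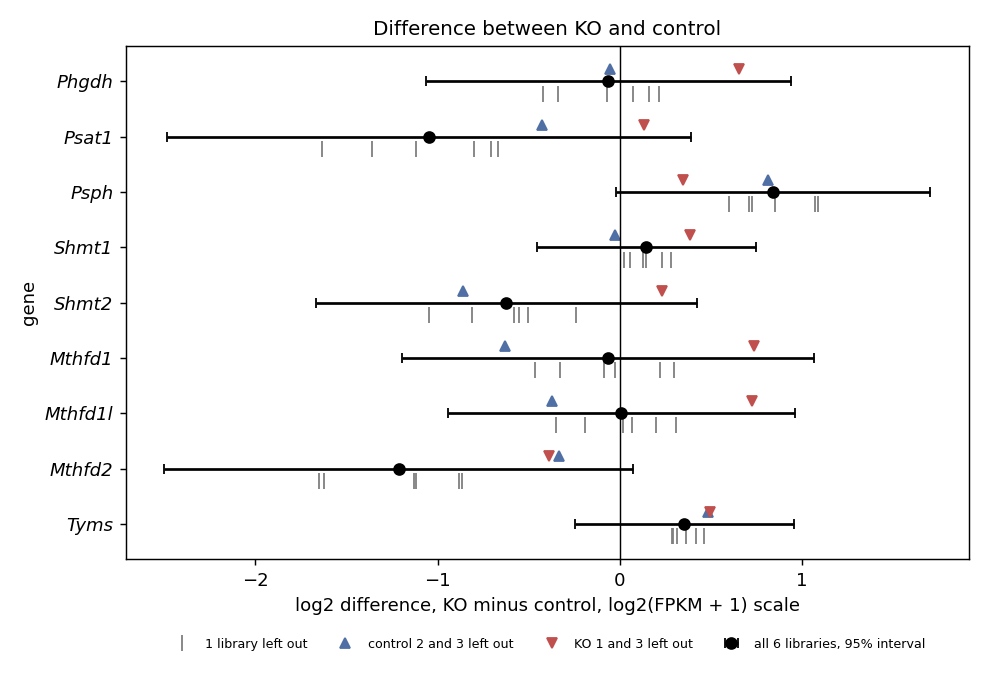
Log2 difference, KO minus control, of each gene on the log2(FPKM + 1) scale with all libraries (black point, 95% limma interval), with 1 library left out (grey ticks), with control 2 and 3 left out (blue triangles) and with KO 1 and 3 left out (red triangles). All 9 intervals with all libraries include 0, and for Phgdh, Mthfd1 and Mthfd1l the estimate changes sign with single libraries.

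Ordered by mean level, the KO libraries ran Phgdh, Shmt2, Mthfd1l, Mthfd1, Psat1, Mthfd2, Psph, Shmt1 and Tyms. The controls ran Phgdh, Shmt2, Mthfd2, Psat1, Mthfd1l, Mthfd1, Shmt1, Psph and Tyms. Among neighbours in these orders, the gap of the means exceeded the SD of both genes for Shmt1 over Tyms in KO, and for Shmt2 over Mthfd2 and Mthfd1 over Shmt1 in controls. For all other neighbours the gap did not exceed both SDs. That SD is between libraries, so it does not show whether 2 genes differed within each library. In KO 1, 2 and 3, Shmt2 lay above Mthfd1l (34.2, 66.4 and 20.9 against 16.2, 29.7 and 11.3 FPKM). Mthfd1l lay above Mthfd1 in all 6 libraries (ratio 1.01 to 1.36), though within counting error in KO 1 and control 1. Phgdh and Shmt2 were the 2 highest in each of the 6 libraries. By library, KO 2 held the highest level of 5 of the 9 genes and KO 3 the lowest level of 5.

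Centred on their means over the 6 libraries, the log2 profiles held 2 pairs that were close by rank, within the nearest 1% of genes. Mthfd2 and Psat1 differed by a root mean square of 0.277 on the log2(FPKM + 1) scale. Psat1 was the gene ranked 5 in likeness to Mthfd2 among 10825 protein-coding genes, and Mthfd2 ranked 6 in likeness to Psat1. Mthfd1 and Mthfd1l differed by 0.122, with Mthfd1l ranked 2 in likeness to Mthfd1 and Mthfd1 ranked 18 in likeness to Mthfd1l. No other pair of the 9 was within the nearest 1% of genes. Shmt1 and Tyms differed by 0.229, less than Mthfd2 and Psat1. By rank they were further apart, with Tyms ranked 1508 in likeness to Shmt1 and Shmt1 ranked 673 in likeness to Tyms. Psph differed from Psat1 by 1.30 and from Mthfd2 by 1.32, and those genes ranked 10259 and 10284 of 10825 in likeness to Psph. These are descriptions over 6 libraries, which share their depth and cell makeup across genes, and carry no test.

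**Figure D4:**
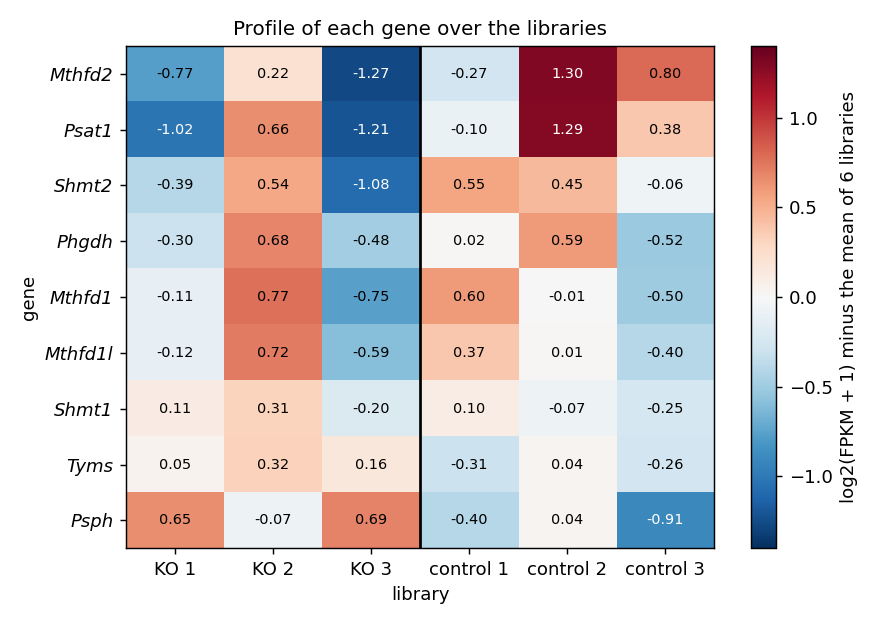
Log2(FPKM + 1) of each gene (rows) in each library (columns, KO left of the black line and controls right of it), minus the mean of the gene over the 6 libraries. Mthfd2 and Psat1 are highest in control 2 (1.30 and 1.29), Mthfd1 and Mthfd1l in KO 2 (0.77 and 0.72), and Psph in KO 3 and KO 1 (0.69 and 0.65).

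Outside the 9, the protein-coding gene most like Mthfd2 was Hif1a, the oxygen-regulated subunit of a transcription factor, at a root mean square difference of 0.138. Hif1a measured 13.5, 27.7 and 8.69 FPKM in KO 1, 2 and 3, against 22.5, 53.6 and 35.5 FPKM in control 1, 2 and 3. Vmp1 (0.226) and Hif1a (0.230) were nearest to Psat1. Il2ra (0.092), the alpha chain of the interleukin-2 receptor, and Ppat (0.135), the first enzyme of purine synthesis, were nearest to Mthfd1, and Ppat (0.073) and Suclg2 (0.079) to Mthfd1l. Nearest were Nup37 (0.138) to Phgdh, Erap1 (0.134) to Shmt2, Tomm5 (0.101) to Psph, Dctn5 (0.047) to Shmt1 and Nsmce4a (0.057) to Tyms. Tomm5 measured 121, 84.3 and 141 FPKM in KO 1, 2 and 3, against 70.6, 90.9 and 51.3 FPKM in control 1, 2 and 3.

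Promoter windows of RefSeq genes (GRCm38.p6, 250 bases before to 50 after the start site) were matched for all 9 genes, with 2 windows for Psat1. They were searched on both strands for TGATGNAA, the core of the element that C/EBP-ATF dimers bind, TTTNNCGC, an E2F-type motif, CACGTG, the E-box of Myc, and CCAAT, the NF-Y motif. TGATGNAA was found in 0 of the 9 genes, against 3.97% of 32851 windows, and TTTNNCGC in 3 genes (Psph, Shmt2 and Tyms), against 5.17%. CACGTG was found in 1 gene (Tyms), against 7.15% of windows, and CCAAT in 6 genes, against 37.4%. A match is a description of the letters in the window, and no match says nothing of the factor. The 30 bases after the start site were found in 0 of 7 transcripts of Mthfd1, 0 of 4 of Mthfd1l and 0 of 9 of Tyms. For each other window they were found in 1 transcript. The start sites of the Mthfd1, Mthfd1l and Tyms windows are therefore less sure. The windows of the 2 like pairs and of Psph, which had the opposite pattern, are shown 5′ to 3′ on the strand of the gene, with all motif matches in capitals.
Mthfd2: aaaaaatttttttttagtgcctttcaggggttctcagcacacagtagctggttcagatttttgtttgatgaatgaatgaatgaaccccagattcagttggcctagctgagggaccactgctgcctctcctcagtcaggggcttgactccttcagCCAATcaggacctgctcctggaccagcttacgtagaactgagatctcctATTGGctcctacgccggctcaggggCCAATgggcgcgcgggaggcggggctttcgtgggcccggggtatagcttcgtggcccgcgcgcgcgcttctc
Psat1: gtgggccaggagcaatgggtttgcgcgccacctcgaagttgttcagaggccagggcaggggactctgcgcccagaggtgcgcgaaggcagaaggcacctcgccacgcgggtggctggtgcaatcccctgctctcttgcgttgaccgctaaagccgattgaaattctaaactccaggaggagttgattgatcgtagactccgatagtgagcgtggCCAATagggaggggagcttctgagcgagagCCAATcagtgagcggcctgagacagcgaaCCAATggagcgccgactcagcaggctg
Mthfd1: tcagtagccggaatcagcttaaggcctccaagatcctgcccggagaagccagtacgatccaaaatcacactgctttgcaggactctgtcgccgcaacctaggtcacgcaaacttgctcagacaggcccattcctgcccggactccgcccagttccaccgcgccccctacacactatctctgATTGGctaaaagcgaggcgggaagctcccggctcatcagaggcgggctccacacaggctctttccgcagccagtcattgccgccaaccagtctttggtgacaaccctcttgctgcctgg
Mthfd1l: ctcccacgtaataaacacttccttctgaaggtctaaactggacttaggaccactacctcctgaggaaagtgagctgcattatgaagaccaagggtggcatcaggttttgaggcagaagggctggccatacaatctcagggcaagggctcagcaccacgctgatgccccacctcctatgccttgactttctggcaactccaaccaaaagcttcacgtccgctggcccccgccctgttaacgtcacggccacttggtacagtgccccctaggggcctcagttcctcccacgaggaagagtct
Psph: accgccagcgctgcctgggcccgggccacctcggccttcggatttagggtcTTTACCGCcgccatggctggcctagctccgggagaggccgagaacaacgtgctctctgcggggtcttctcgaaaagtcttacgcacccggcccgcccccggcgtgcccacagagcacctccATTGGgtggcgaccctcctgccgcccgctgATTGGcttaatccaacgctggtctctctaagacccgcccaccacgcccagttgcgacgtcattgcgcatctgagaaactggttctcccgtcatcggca

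The Mthfd2 window (chr6:83317555-83317854, minus strand) and this Psat1 window (chr19:15925010-15925309, minus strand) each hold 3 CCAAT matches on either strand, at 96, 47 and 22 bases before the start site in Mthfd2 and at 36 and 6 bases before and 23 bases after it in Psat1. The other Psat1 window holds 0 CCAAT matches. The Mthfd1 window (chr12:76254982-76255281, plus strand) holds 1, and the Mthfd1l window (chr10:3972825-3973124, plus strand) holds 0 of the 4 motifs, although the profiles of that pair were the most alike. The Psph window (chr5:129787204-129787503, minus strand) holds 1 TTTNNCGC and 2 CCAAT matches.

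Mthfd2 was highest in the same 2 libraries as most ATF4 targets, control 2 and control 3, and Psat1 was highest in control 2. Of 20 listed ATF4 targets (Atf4 included), 15 were higher in both control 2 and control 3 than in the other 4 libraries, as was Mthfd2 alone of the 9 enzymes. How many of all tested genes had this pattern is not given here, so the count has no background. Atf4 measured 185, 129 and 233 FPKM in KO 1, 2 and 3, against 172, 471 and 301 FPKM in control 1, 2 and 3. Asns, asparagine synthetase, measured 15.4, 5.01 and 14.5 FPKM in KO 1, 2 and 3, against 5.56, 71.7 and 44.9 FPKM in control 1, 2 and 3. Psat1 and Mthfd2 differed from Asns in KO 2, where they were higher than in KO 1 and KO 3 and Asns was lower. Atf4 and Asns were chosen after their values were seen.

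None of the 19 ATF4 targets tested passed limma over all genes, and 7 had an unadjusted limma p under 0.05, as had 11.8% of all tested genes. Estimates were higher in KO for 4 and lower for 15, and the median log2 difference was -0.77. Chac1, which degrades glutathione, averaged 0.960 ± 0.590 FPKM in KO and 8.96 ± 5.17 FPKM in controls (limma adjusted p = 0.417). Slc7a11, the cystine transporter, averaged 5.86 ± 2.04 FPKM in KO and 49.1 ± 33.9 FPKM in controls (limma adjusted p = 0.417). Aars, an aminoacyl-tRNA synthetase, averaged 12.5 ± 2.30 FPKM in KO and 30.2 ± 10.9 FPKM in controls (limma adjusted p = 0.417). In all 3 every KO library lay below every control, but they were named by smallest p, which favours such separation. Of the 19 tested, 5 did not overlap with KO lower and 1 with KO higher. The shares over all tested genes were 9.44% and 6.7%. Of the 7, Stc2, a secreted glycoprotein chosen after its values were seen, ran the other way, with 4.41, 2.47 and 2.19 FPKM in KO 1, 2 and 3, against 0.636, 1.17 and 0.668 FPKM in control 1, 2 and 3 (log2 difference 1.11; limma adjusted p = 0.417).

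Neutrophil and erythroid markers were also highest in control 2 and control 3. All 14 neutrophil markers and 9 of 11 erythroid markers were higher there than in the other 4 libraries, again without the share over all tested genes. The summed erythroid level was 27.3 to 64.5 FPKM in KO and 45.1, 2272 and 1070.2 FPKM in control 1, 2 and 3. Macrophage markers summed to 463 to 3538 FPKM in KO and 3050 to 6966 FPKM in controls, with 4 of 14 higher in control 2 and control 3 than elsewhere. Lyz2 and Hmox1 made up most of these sums (Hmox1 was chosen after its values were seen). The mean log2(FPKM + 1) of the macrophage markers was 4.94, 2.11 and 6.01 in KO 1, 2 and 3, against 5.18, 5.58 and 4.81 in control 1, 2 and 3, so by this measure KO 3 was highest and KO 2 lowest. B cell markers summed to 53.7 to 86.2 FPKM in KO and 16.4 to 49.6 FPKM in controls, and plasma cell markers to 32.7 to 193 FPKM in KO and 47.5 to 283 FPKM in controls. limma called 0 markers of any cell type, and held 11.8% of all tested genes at an unadjusted p under 0.05. At an unadjusted p below 0.05 it held 9 of 13 neutrophil markers tested (median log2 difference -3.83), 0 of 7 erythroid (-3.02), 1 of 14 macrophage (-0.63), 8 of 17 T cell (1.23), 2 of 5 B cell (0.97) and 0 of 5 plasma cell markers (-0.20). The part of these cells in the Mthfd2, Psat1 or ATF4 target values was not tested.

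**Figure D5:**
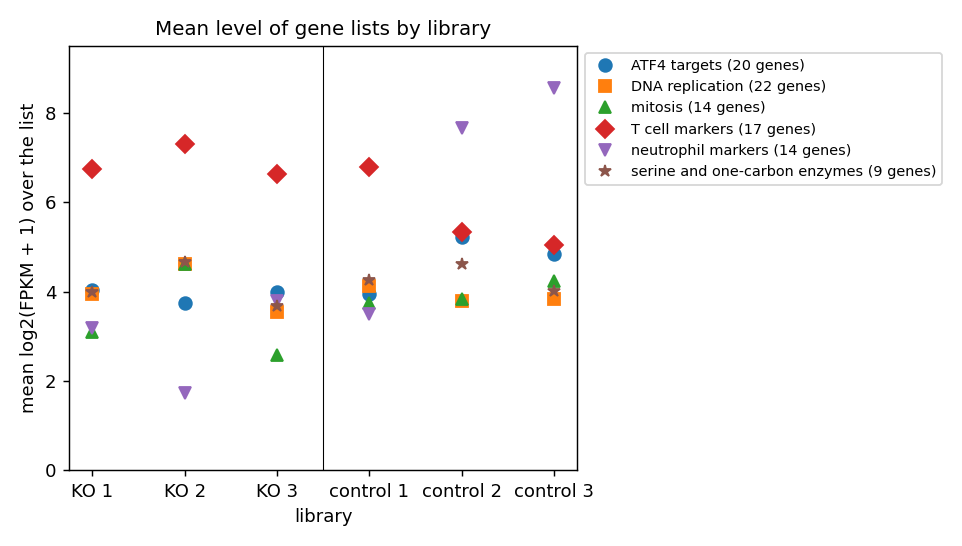
Mean log2(FPKM + 1) over gene lists in each library, KO left of the line and controls right of it. Neutrophil markers reach 7.67 and 8.55 in control 2 and control 3, where ATF4 targets are also highest (5.23 and 4.84) and T cell markers lowest (5.32 and 5.04), while the 9 serine and one-carbon enzymes are highest in KO 2 (4.66) and control 2 (4.61).

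Phgdh, Shmt1, Mthfd1, Mthfd1l and Tyms were highest in KO 2, as were most genes of cell division. KO 2 had the highest level of 20 of 22 DNA replication genes, 11 of 13 genes of deoxynucleotide supply, 10 of 14 mitosis genes and 8 of 12 purine synthesis genes, and also of 14 of 17 T cell markers. KO 1 and KO 3 lay below the other 4 libraries for 11 of the 14 mitosis genes, 8 of the 22 replication genes and 3 of the 9 enzymes. Mki67, the proliferation antigen, measured 9.56, 33.2 and 4.86 FPKM in KO 1, 2 and 3, against 19.6, 22.98 and 41.8 FPKM in control 1, 2 and 3. Replication genes averaged 22.6, 40.1 and 17.7 FPKM in KO 1, 2 and 3, against 27.0, 21.9 and 21.01 FPKM in control 1, 2 and 3. The share of all tested genes that were highest in KO 2, or lowest in KO 1 and KO 3, is not given here, so these counts have no background. What part dividing cells or T cell content had in the enzyme levels was not tested.

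Of the 21 replication genes tested, limma called 0, while 3 reached an unadjusted p below 0.05, as did 11.8% of all tested genes. The median of the 21 was 0.087 in log2 difference. Slbp, the histone mRNA binding protein, averaged 20.8 ± 0.686 FPKM in KO and 12.4 ± 1.32 FPKM in controls, with a limma adjusted p of 0.417. Gins1, of the replicative helicase, averaged 11.6 ± 0.399 FPKM in KO and 7.21 ± 0.816 FPKM in controls (limma adjusted p = 0.417). Ccne1, cyclin E, averaged 15.96 ± 2.91 FPKM in KO and 8.35 ± 4.84 FPKM in controls (limma adjusted p = 0.417). Slbp and Gins1, named by smallest p, did not overlap between groups, with KO higher, as was so for 6.7% of all tested genes. Of 14 mitosis genes limma called 0, with 0 at an unadjusted p under 0.05, 13 estimates were lower in KO, and the median was -0.53. Of 13 genes of deoxynucleotide supply limma called 0, with 0 at an unadjusted p under 0.05 and a median of 0.198.

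Purine synthesis draws carbon from the folate cycle. Of its 12 genes limma called 0, with 0 at an unadjusted p under 0.05, 10 estimates were higher in KO, and the median log2 difference was 0.16. Gmps, which makes GMP, measured 24.6, 12.1 and 24.3 FPKM in KO 1, 2 and 3, against 11.9, 13.2 and 9.03 FPKM in control 1, 2 and 3, and was the gene ranked 3 in likeness to Psph. Prps2, which makes the ribose donor, averaged 16.1 ± 4.84 FPKM in KO and 11.4 ± 4.64 FPKM in controls.

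Of 26 other genes of folate, methionine and glycine metabolism, 18 passed the low-value filter and limma called 0 of them, with 2 below an unadjusted p of 0.05 and a median difference of 0.0096 in log2. Ahcy, which clears the product of methylation reactions, measured 36.3, 56.1 and 29.4 FPKM in KO 1, 2 and 3, against 20.1, 27.5 and 19.3 FPKM in control 1, 2 and 3, with every KO library above every control (log2 difference 0.80; limma adjusted p = 0.417). Ggh, which trims the glutamate tail of folates, measured 8.03, 10.8 and 9.65 FPKM in KO 1, 2 and 3, against 11.9, 29.1 and 18.4 FPKM in control 1, 2 and 3, and the KO libraries were all under the controls (log2 difference -0.91; limma adjusted p = 0.417). Ahcy and Ggh were named by smallest p. Of all tested genes, 6.7% did not overlap with KO higher and 9.44% with KO lower, and 11.8% had an unadjusted limma p under 0.05. Amt, of the glycine cleavage system, averaged 4.89 ± 2.84 FPKM in KO and 1.49 ± 0.823 FPKM in controls. KO 1 and KO 3, the libraries with reads on most sensory receptor genes, lay above the other 4 libraries for 8 of the 26 genes, as for Psph, but 3 of the 8 passed the low-value filter. For this pattern too, the share over all tested genes is not given here. Mthfs, which recycles a folate by-product, was below the filter and so untested, and was chosen after its values were seen. It measured 5.40, 0.294 and 6.45 FPKM in KO 1, 2 and 3, against 0.420, 0.567 and 0.435 FPKM in control 1, 2 and 3.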

How the data were processed

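RNA-seq of 3 KO and 3 control libraries was compared, and groups and replicate numbers follow the sample titles. The deposited values are FPKM per Ensembl gene, made by the authors, and the unit was read from the values. Per the submitters' processing notes, mm8 was a build used and the tools included HTSeq 0.6.0, Bowtie2 2.2.3 and HISAT2 (2), whose roles are unstated. How reads became FPKM, and whether strand was used, is not given in the sources used here. Symbols and exon lengths came from GENCODE M21, which held 35313 of the 35458 identifiers. As its build differs from mm8, the only coordinates given are those of the RefSeq promoter windows.

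FPKM times exon length fell on multiples of 1 step per library, and 92.1% to 93.4% of values under 200 reads lay within 0.02 of a whole read. These implied reads give the depth, which is approximate, and for the 9 genes range from 81 to 3213. For a 1 kb gene, 3 reads correspond to 0.204 to 0.998 FPKM in KO and 0.200 to 0.253 FPKM in controls, the limit set by a count of 0.

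limma 3.58.1 (R 4.3.3) compared the groups on log2(FPKM + 1), with a variance trend and no covariate, for genes that reached 1 FPKM in 3 or more libraries, and p-values were adjusted by Benjamini-Hochberg over all of them, at 0.05. A fold change on the log2(FPKM + 1) scale understates low genes. The smallest p of an exact permutation test of 3 against 3 libraries is 0.1, so none was used. The procedure was tested on simulated data with the same dispersion for all genes and no differences in cell makeup. That test therefore checked the procedure and not how it fares on libraries like these. Intervals of levels are 95% exact Poisson and those of ratios Clopper-Pearson, and they cover counting error only. Errors of means are SD.

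The 9 genes, the 13 lists (with 189 entries, of which Ahsp was not analysed here) and the tests were chosen with earlier results of these data known, and no set test was run. Lists are described by counts and medians. Named were all 9 genes, up to 3 genes of each other list by smallest p, and the nearest genes by root mean square difference of centred log2(FPKM + 1). Outside this rule, Slc2a10 was named as the targeted gene, and Cct6a and Smcr8 for their exon overlap. Not all genes the rule names are reported, and others outside it are marked.

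Alternatives were another pseudocount, no filter, quantile normalization, a replicate block, limma-voom on implied reads, libraries left out and a restriction to protein-coding genes. DESeq2 and TMM, planned for counts, did not apply. Python 3.11.15, numpy 2.4.6, pandas 2.3.3, scipy 1.17.1 and matplotlib 3.10.9 were used. Some genes of the lists are not reported here.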

Additional observations from a re-analysis of the deposited data

How the results depend on the processing

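None of the 9 enzymes passed limma under any of the 14 alternatives, with limma adjusted p of 0.061 (Psat1 without KO 2) to 0.999. Of 126 estimates under alternatives, 110 kept their sign. Psph, Mthfd2 and Tyms kept theirs under all 14. With 1 library left out, log2 differences ranged from -0.42 to 0.22 for Phgdh, from -0.47 to 0.30 for Mthfd1 and from -0.35 to 0.31 for Mthfd1l, while that of Psat1 stayed between -1.64 and -0.67, that of Shmt2 between -1.05 and -0.24 and that of Shmt1 between 0.026 and 0.28. With KO 1 and KO 3 left out together, the sign turned for Phgdh (0.65), Psat1 (0.13), Shmt2 (0.23) and Mthfd1 (0.74), and with control 2 and control 3 left out for Shmt1 (-0.028) and Mthfd1l (-0.37). These fits leave 1 library in a group, assumed to vary like the others. Quantile normalization turned Shmt1 (-0.095) and Mthfd1l (-0.20), and limma-voom turned Mthfd1 (0.10). The cause was not tested.

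Over all genes, the limma count of 0 higher and 0 lower became 1687 and 134 without KO 2 (13% called) and 146 and 217 without control 1 (2.6%), and was 0 and 0 with each other single library left out. Without KO 2, 4 of the 9 enzymes had an unadjusted p under 0.05, as had 26.3% of all genes. At that limma threshold, Mthfd2 was held without control 1 (21.9% of all genes) and after quantile normalization (14.7%). Psph was held without control 2 (4.31%) and with no filter (5.79%), and both were held among protein-coding genes (14.7%). Another pseudocount, and leaving out KO 1, KO 3 or control 3, held 0 of the 9. The median of the 9 enzymes, -0.063, ranged from -0.42 to 0.28 with single libraries left out. With the replicate block 0 genes passed, and the estimates were the same, as they must be in a balanced design. The block lowered the standard errors of Phgdh, Psat1, Shmt2, Mthfd1, Mthfd1l and Mthfd2 and raised those of Psph, Shmt1 and Tyms. With it, limma held Psat1 and Mthfd2 at an unadjusted p under 0.05, as it did 12.1% of all genes. Deviations of same-numbered libraries correlated at 0.112, 0.0202 and 0.0175 across genes for numbers 1, 2 and 3, while KO 3 correlated best with control 2. Such correlations cannot decide whether same-numbered libraries were paired. No group has 4 libraries, so single outlying libraries could not be tested. The mean gene ratios moved by less than their SD with 0.1 FPKM added.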
